A study of Solanum lycopersicum with 4 samples.

Results

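The 8 genes described here belong to the epidermis and cuticle of tomato (Solanum lycopersicum), out of 34722 genes measured in its shoot apical meristem. They were set by identifier, with earlier results of these data known: 5 regulators of epidermis and cuticle (CD2, Wo, MIXTA-like, SHN1 and SHN3), 2 enzymes of cutin (GPAT6 and CD1) and 1 enzyme of wax (CER6). All 8 identifiers were in the table and all had reads. The names come from published tomato nomenclature. The names CD2, SHN3, GPAT6, CD1 and CER6 also stood in the RefSeq gene table (assembly SLM_r2.1), each on the chromosome that its identifier carries, whereas Wo, MIXTA-like and SHN1 did not. RefSeq did not list any of the 8 identifiers themselves, so the pairing of name and identifier rests on the nomenclature.

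The outermost cell layer of the meristem gives rise to the epidermis, which seals the plant with a cuticle. The cuticle is a polyester, cutin, filled and covered with wax. Cutin is built from glycerol esters of hydroxylated fatty acids that are exported and joined outside the cell, and wax is built from fatty acids lengthened inside it. Transcription factors of the HD-Zip IV, MYB and SHINE classes act upstream of the enzymes and also steer the shape of epidermal cells and hairs.

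RNA sequencing compared wild-type meristems at a pair of stages, to ask which genes differ when the meristem passes to flowering. Vegetative meristems, sampled once 6 leaves had been made, gave 2 libraries lettered C and D, and meristems at the floral transition gave 2 libraries lettered A and B. These are the letters of the sample titles; the sample descriptions and the table's columns letter the vegetative libraries A and B instead and number the transitional ones 1 and 2. All seedlings were wild type (cultivar not given in the sources used here), grew in a greenhouse for 2 to 12 days and were fixed in acetone before dissection. The labels do not state how many meristems went into a library, nor whether the replicates are separate plants, so p-values measure only the spread between these libraries, which may be technical.

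Libraries held 16141074 to 23043526 reads in genes, and the limit that a count of 0 allows was 0.13 to 0.19 CPM (3 reads of the total, for counting error only). Of the 4 meristem markers checked, all had reads in all 4 libraries. TKN2, a KNOX gene of meristem cells, stood at 8255 normalised counts in vegetative C, 7953 in vegetative D, 7267 in transitional A and 6457 in transitional B. Its log2 change was -0.24 (limma adjusted p = 0.224, not called). The other markers, named by the nomenclature, were CLV3, WUS and TKN1. CLV3 was called lower, with 328 and 277 in vegetative C and D against 138 and 171 in transitional A and B. The log2 change of CLV3 was -0.97 (SE 0.16, limma adjusted p = 0.0233). WUS (log2 change 0.47) and TKN1 (-0.23) were not called (limma adjusted p = 0.175 and 0.463). S, a gene of inflorescence development, rose from 183 and 71.4 to 1180 and 778 (log2 change 3.05, SE 0.40, limma adjusted p = 0.00963). MC (Solyc05g056620.1), a MADS-box gene of the transition by the nomenclature, rose from 138 in vegetative C and 9.78 in vegetative D to 2588 in transitional A and 1525 in transitional B (log2 change 5.68, SE 1.001, limma adjusted p = 0.0273). Both S and MC stood higher in vegetative C than in D. FA (log2 change 0.16) and AN (2.90, on 0 to 15 reads a library), the other transition genes checked, were not called (limma adjusted p = 0.455 and 0.108). Values are normalised counts, which are reads divided by a size factor for each library. They are compared here for a gene across libraries and not between genes, since transcript length was not used. The tissue was measured in bulk, so fewer epidermal cells and less RNA per cell cannot be told apart.

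No epidermis or cuticle gene was called at the transition, but CD2 and CER6 stood just above the threshold, both lower in transitional meristems. Called means an adjusted p under 0.05 in limma on log2(value + 1), Benjamini-Hochberg over the 19607 genes whose mean reached 5 normalised counts. Of the 8 genes 7 were tested, and SHN3 was too low. By limma 0 of the 7 were called, against 3.89% of all genes tested; 0 were called higher (2.70% of all genes) and 0 lower (1.19% of all genes). At an unadjusted p under 0.05, 3 of the 7 stood lower (CD2, Wo and CER6) and 0 higher, where 7.91% of all genes tested were lower by that rule. DESeq2 called CD2 and CER6 lower, against 1.61% of all genes called lower by that tool, whereas edgeR and limma-voom called 0. Both transitional values stood below both vegetative values in 3 of the 7 (24.3% of all genes tested) and above them in 0 of the 7 (25.0% of all genes tested). The median log2 change of the 7 was -0.22, against 0.01 over all genes tested.

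**Figure D1:**
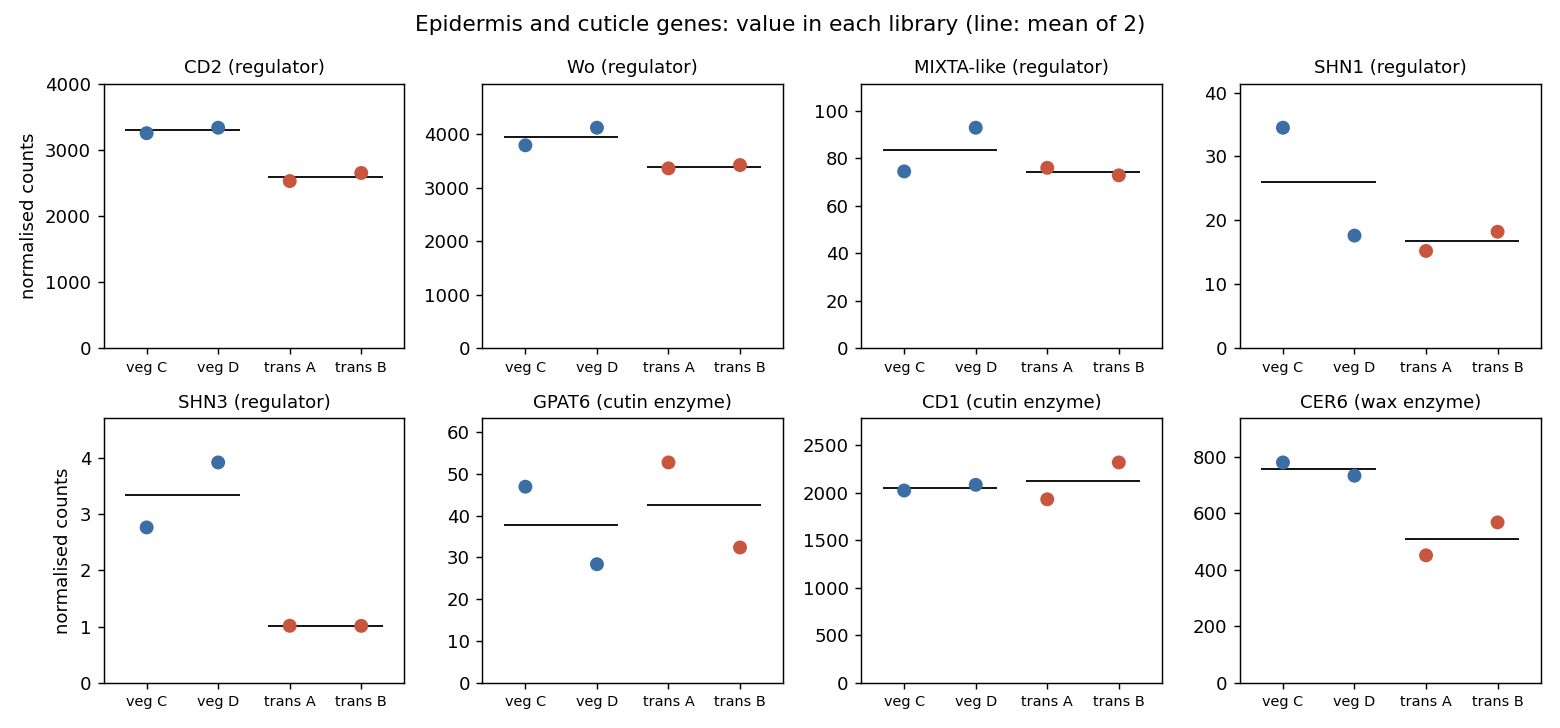
Normalised counts of each of the 8 genes in the 4 libraries (x axis), each panel with its own linear y axis starting at 0; blue points are vegetative C and D, red points transitional A and B, and lines are the means of 2 libraries. CD2, Wo and CER6 stand lower in both transitional libraries, while MIXTA-like, SHN1, GPAT6 and CD1 overlap between stages and SHN3 rests on 1 to 4 reads a library.

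CD2 (Solyc01g091630.2) encodes an HD-Zip IV transcription factor needed for the tomato fruit cuticle. It stood at 3260.1 normalised counts in vegetative C, 3343 in vegetative D, 2534 in transitional A and 2657 in transitional B. The replicates lay close together at each stage and the stages did not overlap: the means were 3302 ± 58.9 and 2595 ± 86.9 (SD, n = 2 each), the vegetative mean 1.27 times the transitional one. The log2 change was -0.35 (SE 0.07, 95% interval -0.52 to -0.17), with an unadjusted p of 0.00209 and an adjusted p of 0.0521 by limma. The adjusted p of CD2 was 0.0257 by DESeq2, 0.0600 by edgeR and 0.0657 by limma-voom. Of all genes tested, 22.1% had a log2 change of larger absolute size. The values rested on 2363 to 3418 reads a library.

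Wo (Solyc02g080260.2), the gene of the woolly mutant, encodes another HD-Zip IV factor, which promotes the formation of multicellular trichomes in tomato. It stood at 3791 in vegetative C, 4120.04 in vegetative D, 3359.9 in transitional A and 3422 in transitional B. Both transitional libraries were below both vegetative ones, with a gap between stages that was larger than that between C and D. The vegetative mean of 3956 ± 232 was 1.17 times the transitional mean of 3391 ± 43.6 (SD, n = 2 each). Its log2 change of -0.22 (SE 0.08, 95% interval -0.41 to -0.04) was not called, with a limma adjusted p of 0.205.

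The remaining regulators were far lower in reads, and their stages overlapped or could not be tested. MIXTA-like (Solyc02g088190.2), a MYB factor of epidermal cell shape and cuticle, stood at 74.5 in vegetative C, 92.9 in vegetative D, 76.0 in transitional A and 72.8 in transitional B. Vegetative D was the highest, but the ratio of C to D was 0.80 on 54 and 95 reads, with an exact 95% counting interval of 0.563 to 1.13. The log2 change was -0.16 (SE 0.21, 95% interval -0.65 to 0.33, limma adjusted p = 0.756), so the data leave room for a transitional level between 0.638 and 1.26 times the vegetative one. Without vegetative D the change of MIXTA-like was -0.0017, and without C it was -0.32.

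SHN1 (Solyc03g116610.2) and SHN3 (Solyc06g053240.2) encode AP2-domain factors of the SHINE clade, whose members activate cutin and wax genes. SHN1 stood at 34.5 in vegetative C, 17.6 in vegetative D, 15.2 in transitional A and 18.2 in transitional B. Vegetative C, the library in which S and MC also stood above D, was alone high, and vegetative D lay within the transitional range. Its part in the value of SHN1 was not tested. Between C and D the ratio of 1.96 rested on 25 and 18 reads, with an exact 95% counting interval of 1.03 to 3.81. The log2 change of SHN1 was -0.54 (SE 0.42, 95% interval -1.53 to 0.44, limma adjusted p = 0.568). It was -0.08 without vegetative C and -1.01 without vegetative D. SHN3 stood at 2.76 in vegetative C, 3.91 in vegetative D and 1.01 in either transitional library. These values were 2 and 4 reads against 1 and 1, and the vegetative to transitional ratio of 3.39 had an exact 95% counting interval of 0.606 to 34.4. A difference in SHN3 was not detectable at this depth.

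Both cutin enzymes overlapped between the stages. CD1 (Solyc11g006250.1), a cutin synthase that joins cutin monomers outside the cell, stood at 2025 in vegetative C, 2085 in vegetative D, 1933 in transitional A and 2321 in transitional B. The transitional libraries lay on either side of the vegetative ones, and the spread between A and B (SD 274) exceeded that between C and D (SD 42.5). The log2 change of CD1 was 0.04 (SE 0.10, limma adjusted p = 0.874), and the 95% interval of -0.19 to 0.28 held transitional levels between 0.875 and 1.21 times the vegetative one. Without transitional B the change of CD1 was -0.09, and without A it was 0.18.

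GPAT6 (Solyc09g014350.2), an acyltransferase that links fatty acids to glycerol for cutin, was low and varied between replicates at both stages. It stood at 46.9 in vegetative C, 28.4 in vegetative D, 52.7 in transitional A and 32.4 in transitional B. One library of each stage was high and one was low, so the stages overlapped. The ratio of C to D was 1.65 (exact 95% counting interval 0.978 to 2.81) and that of A to B was 1.63 (1.03 to 2.61). The log2 change of GPAT6 was 0.17 (SE 0.36, 95% interval -0.68 to 1.03, limma adjusted p = 0.856), and it turned to -0.18 without vegetative D and to -0.17 without transitional A.

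CER6 (Solyc02g085870.2), a beta-ketoacyl-CoA synthase that lengthens fatty acids for wax, was the enzyme with the largest log2 change in size. It stood at 779.5 normalised counts in vegetative C, 733 in vegetative D, 451 in transitional A and 568 in transitional B. Both transitional values were below both vegetative ones, and A was the lower of the transitional pair. The vegetative mean of 756 ± 33.1 was 1.48 times the transitional mean of 509 ± 82.4 (SD, n = 2 each). The log2 change was -0.58 (SE 0.13, 95% interval -0.87 to -0.28), with an unadjusted p of 0.0023 and an adjusted p of 0.055 by limma. The adjusted p of CER6 was 0.0221 by DESeq2, 0.0625 by edgeR and 0.0688 by limma-voom. Without transitional A the change was -0.41 (not called, limma adjusted p = 0.0639), without B it was -0.74 (called, limma adjusted p = 0.0126), and of all genes tested 12.2% had a change of larger absolute size.

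**Figure D2:**
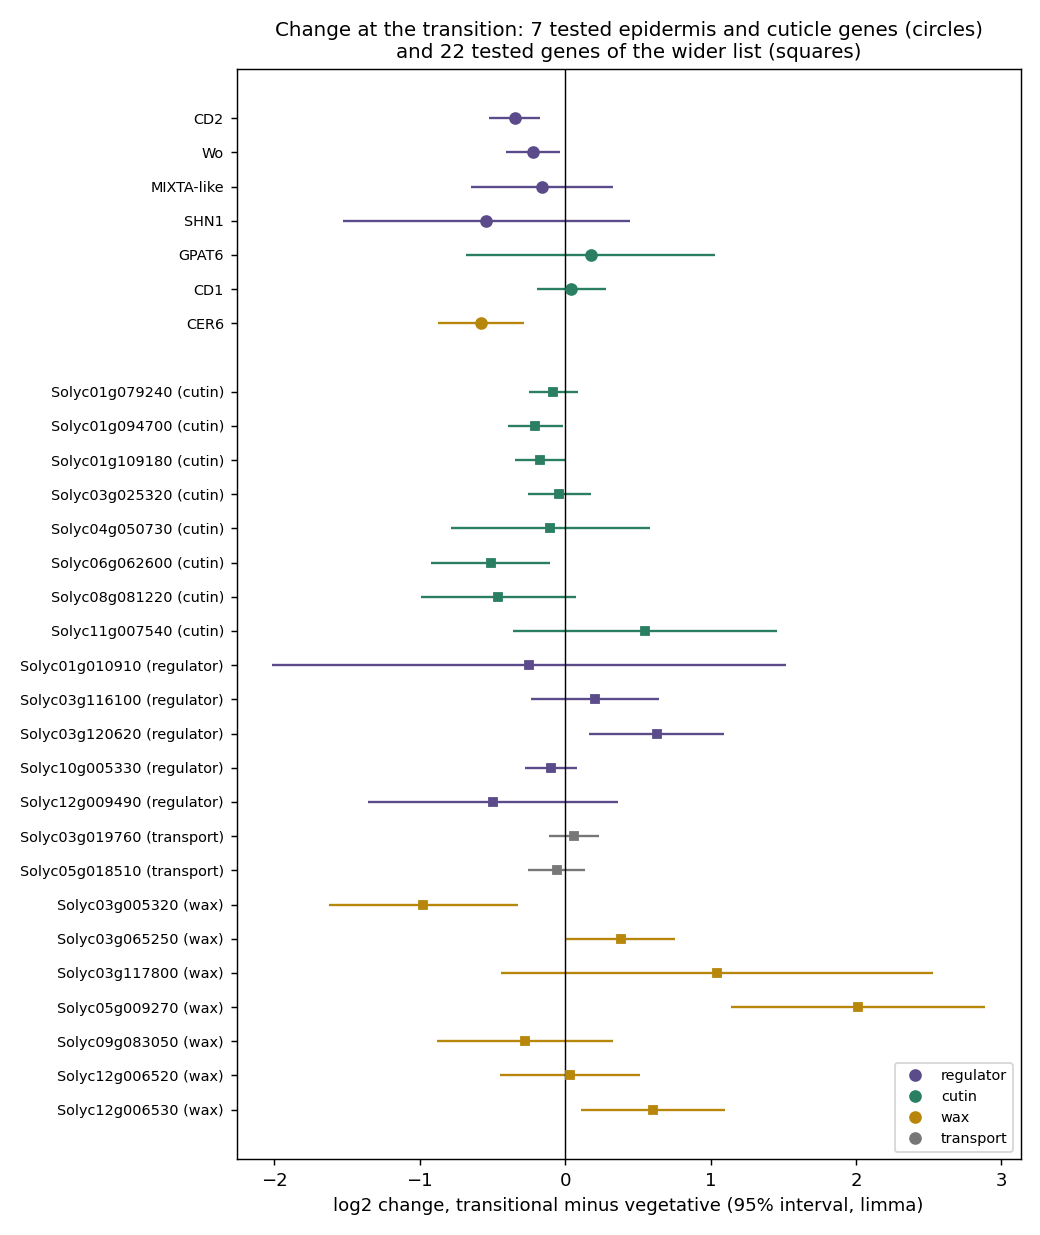
Log2 change (x axis, transitional minus vegetative, 0 marked by the vertical line) with its 95% limma interval for the 7 tested epidermis and cuticle genes (circles) and the 22 tested genes of a wider cuticle list (squares), coloured by class. The intervals of CD2, Wo and CER6 lie below 0, those of MIXTA-like, SHN1, GPAT6 and CD1 hold 0, and Solyc05g009270 at 2.02 is the largest change of the wider list.

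The 7 tested genes differed in how far 1 library decided the value. Leaving out a library at a time kept CD2 between -0.38 and -0.31 on the log2 scale and Wo between -0.28 and -0.16. SHN1 ran from -1.01 to -0.08 and GPAT6 from -0.18 to 0.53, both with few reads.

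**Figure D3:**
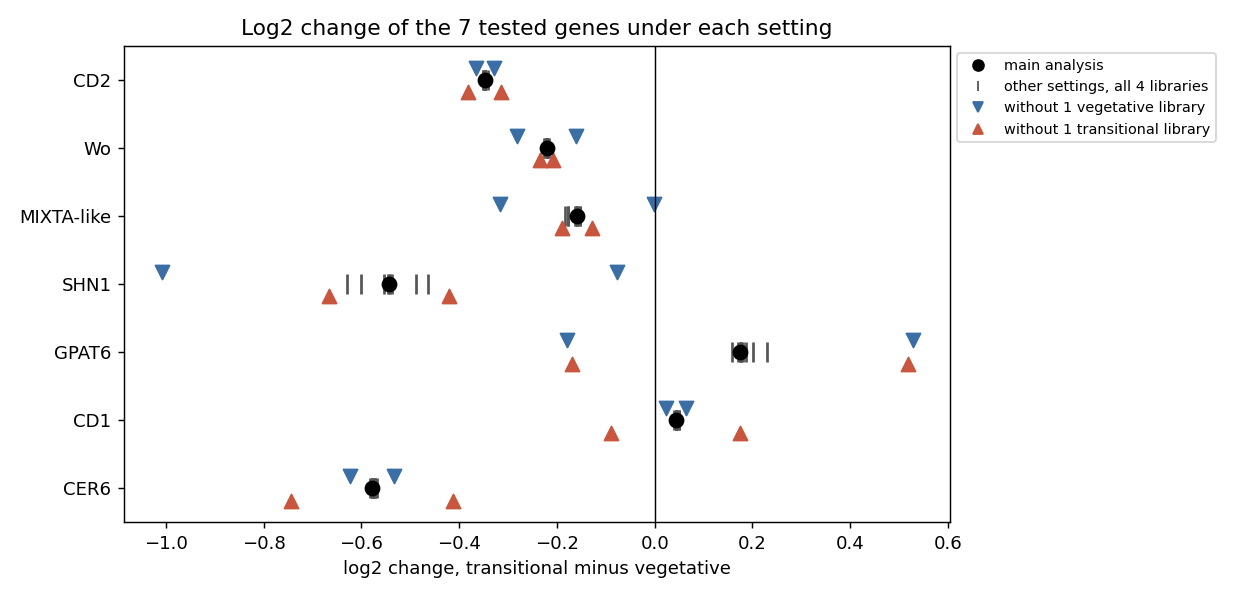
Log2 change (x axis, transitional minus vegetative) of each of the 7 tested genes in the main analysis (black circles), under other settings with all 4 libraries (grey bars), and without 1 vegetative (blue) or 1 transitional library (red). CD2, Wo and CER6 stay below 0 throughout, CER6 between -0.74 and -0.41, while GPAT6 and CD1 take both signs.

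Regulators and enzymes were set side by side, with no test of the difference. All 4 tested regulators had a log2 change below 0 (-0.54 to -0.16), as did CER6 and 48.9% of all genes tested. Both cutin enzymes were slightly above 0 (0.04 for CD1 and 0.17 for GPAT6). Relative to each gene's vegetative mean, the 4 tested regulators averaged 0.06 in vegetative C and -0.06 in vegetative D on the log2 scale, and -0.35 in transitional A and -0.28 in transitional B. The 3 enzymes averaged 0.13, -0.13, -0.10 and -0.14 in the same order. The averages of the regulators did not overlap between stages and those of the enzymes did, since vegetative D lay within the transitional range. The mean log2 change was -0.32 for the 4 regulators and -0.12 for the 3 enzymes, a difference of -0.20 with a standard deviation of 0.08 between replicates. With SHN3 included the difference was -0.35, and with both SHINE genes left out it was -0.12, less than its standard deviation of 0.21 between replicates. Against the 2 cutin enzymes alone, without CER6, the same 3 regulators differed by -0.35, with a standard deviation of 0.27 between replicates. That difference overlapped between stages, as vegetative C (-0.245) lay within the transitional values (-0.463 and -0.240). The size of the difference thus depended on whether SHN1, SHN3 and CER6 were counted. SHN1 overlapped between stages and SHN3 had too few reads to test.

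**Figure D4:**
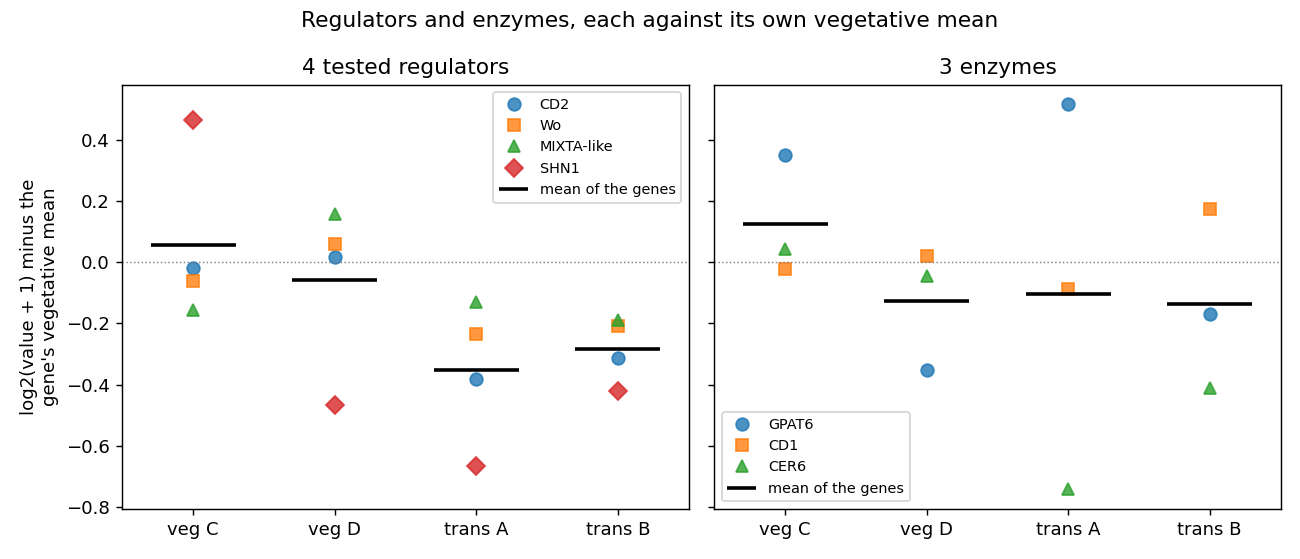
Log2(value + 1) of each gene minus its own vegetative mean (y axis) in the 4 libraries (x axis), for the 4 tested regulators on the left and the 3 enzymes on the right; black bars are the mean of the genes in a library. The regulator means go from 0.06 and -0.06 to -0.35 and -0.28, while the enzyme means of vegetative D (-0.13) and of both transitional libraries (-0.10 and -0.14) are alike, with CER6 and GPAT6 far apart in transitional A.

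Ratios of reads between genes of the same library do not depend on how libraries are scaled, and were read across stages for that reason; the ratios were chosen after the values were seen. For CER6 over CD1 the ratio was 0.385 and 0.351 in vegetative C and D and 0.233 and 0.245 in transitional A and B. For CD2 over CD1 it was 1.61 and 1.603 in the vegetative libraries and 1.31 and 1.14 in the transitional ones. Both ratios were lower in both transitional libraries, so CER6 and CD2 stood lower relative to CD1 at the transition. For Wo over CD1 the ratio was 1.87 and 1.98 against 1.74 and 1.47, and A and B differed by more than the gap between stages. For CD2 over Wo, the other HD-Zip IV gene, it was 0.860 and 0.811 against 0.754 and 0.776. The gap between stages in that ratio was smaller than the gap between C and D. For CD2 over CER6 it was higher at the transition, with 4.18 and 4.56 against 5.62 and 4.68, but A and B differed by more than the gap between stages. For GPAT6 over CD1 the stages overlapped (0.0232 and 0.0136 against 0.0273 and 0.0139). Of the 6 ratios computed 5 did not overlap between stages, CD2 over CER6 being higher at the transition and the others lower. Among single genes tested, 24.3% were lower without overlap and 25.0% higher, and no share over gene pairs was computed. The ratios reuse the same few genes, CD1 in most, so they are not separate results. Each of the 5 had an exact two-sided permutation p of 0.333. That is the smallest that 2 against 2 libraries can give, so the design cannot reach 0.05.

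**Figure D5:**
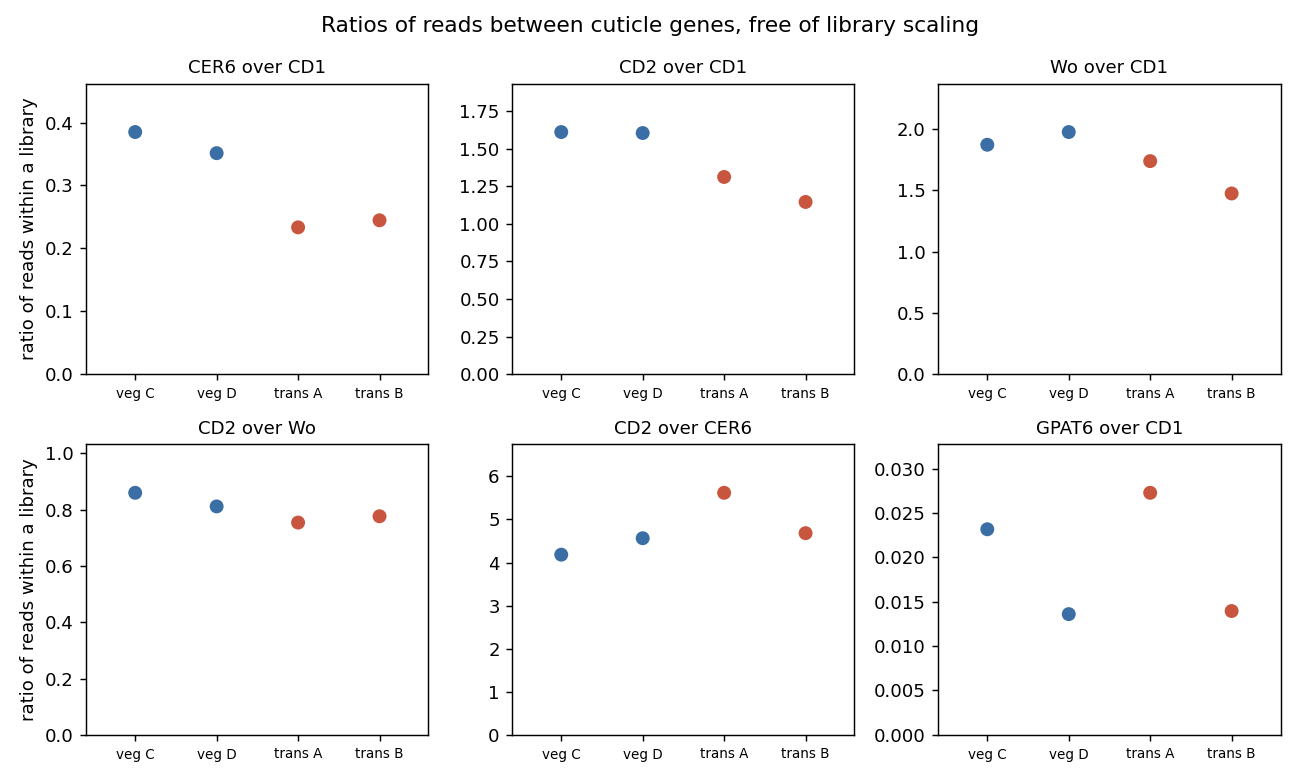
Ratio of reads between genes within a library (y axis, linear from 0) in vegetative C and D (blue) and transitional A and B (red), for all 6 ratios computed. CER6 over CD1 goes from 0.385 and 0.351 to 0.233 and 0.245; CD2 over CER6 is higher in both transitional libraries, and GPAT6 over CD1 overlaps between stages.

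The other genes of the pathway were read from a wider list of 23 identifiers recalled from tomato nomenclature and entered as regulators, cutin genes, wax genes or transporters. Few of its names could be checked against RefSeq, so its genes are given here by identifier and class. Of the 22 tested, 1 rose and 0 fell (limma), against 2.70% of all genes tested that rose and 1.19% that fell. At an unadjusted p under 0.05 there were 8, 4 in each direction, against 17.7% of all genes tested. The median log2 change was -0.07, against 0.01 over all genes tested. Among the 8 tested cutin entries 7 had values below 0 (48.9% of all genes tested had), with a median of -0.14 and 0 called. Among the 7 wax entries 5 had values above 0, with a median of 0.38, and the 7 ran from -0.98 to 2.02. The 5 regulators ran from -0.50 to 0.63 with a median of -0.10. At an unadjusted p under 0.05 (limma) there was 1 regulator, which stood higher, against 17.7% of all genes tested in either direction. The 2 transporters were at -0.06 and 0.06, and 0 were called in either class.

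The gene that rose, Solyc05g009270.2, was entered as a wax gene. It stood at 11.04 normalised counts in vegetative C, 10.8 in vegetative D, 60.8 in transitional A and 36.4 in transitional B. Both transitional values were above both vegetative ones, on 8 and 11 reads against 60 and 36. Its log2 change was 2.02 (SE 0.37, limma adjusted p = 0.032). The call was lost with limma-voom (adjusted p = 0.0724), without a filter on low values (0.125), and when vegetative C, vegetative D or transitional A was left out (limma adjusted p = 0.38, 0.319 and 0.0787). The log2 change in those fits ran from 1.65 without transitional A to 2.06 with limma-voom, and without C or D no gene of the table was called. Another wax entry, Solyc03g005320.2, picked out after its values were seen, had a value of the opposite sign, with 342 and 311 normalised counts at the vegetative stage against 119.6 and 229 at the transition. It was called by DESeq2 (adjusted p = 0.0332) and not by limma with all libraries (log2 change -0.98, SE 0.28, adjusted p = 0.12). Without transitional A its change was -0.51, and without B it was -1.44 and called by limma (adjusted p = 0.00684). Values in the wax class thus lay on both sides of 0.

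Leaf photosynthesis genes, read as markers of leaf tissue, differed between the transitional replicates. All 11 entries of that list were tested and none was called by limma, against 3.89% of all genes tested. At an unadjusted p under 0.05 there were 2 of 11, against 17.7% of all genes tested. Summed, they took 344 and 432 CPM in vegetative C and D and 484 and 287 CPM in transitional A and B, and 1 of them was at 0 in vegetative D. Each of the 11 was above B in A, with a median gap of 1.09 on the log2 scale, whereas 2 of the 7 tested epidermis and cuticle genes were, with a median gap of -0.07. GPAT6 was higher in A than in B by 0.69 on the log2 scale and CER6 and CD1 were lower in A, by -0.33 and -0.26. CD2 and Wo differed between A and B by -0.07 and -0.03. The part of leaf tissue in these differences was not tested.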

How the data were processed

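Total RNA of dissected meristems was sequenced after a TruSeq library preparation, per the labels' protocols. The authors deposited a signal for every gene in every library, which is its count over a library size factor. Tools listed with no role in the submitters' processing notes are DESeq2 1.6.3, HTSeq 0.6.1p1 and TopHat2 2.0.10. Build, annotation and the handling of strand, overlapping genes and gene copies were not given in the sources used here. Within a library, 100% of values were whole multiples of 1 step (relative tolerance 1e-06), so whole reads were recovered, with size factors of 0.725 (C), 1.02 (D), 0.987 (A) and 0.988 (B).

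limma 3.58.1 (trend; R 4.3.3) was fitted on log2(value + 1) with group as the only term, over 19607 genes with a mean of at least 5. On this scale a fold change understates that of low genes. Residual degrees of freedom were 2 and prior ones 5.18. Of the genes tested, 529 rose and 233 fell. edgeR 4.0.16, DESeq2 1.42.0 and limma-voom were run on the recovered reads. Counting intervals and permutation tests used SciPy 1.17.1. The limma script was tested on simulated data. The 8 genes and all lists were chosen with earlier results of these data known. All 8 genes and the meristem and transition genes checked are named by rule, and of other lists the genes called, except where stated.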

Additional observations from a re-analysis of the deposited data

How the results depend on the processing

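CD2, Wo and CER6 kept a log2 change below 0 in all 14 alternatives (CD2 -0.38 to -0.31, Wo -0.28 to -0.16, CER6 -0.74 to -0.41). Genes of the 8 called lower numbered 2 by DESeq2, 1 (CD2) under a filter of 1 CPM in 2 libraries and 1 (CD2) with a pseudocount of 5, and 0 to 2 when 1 library was left out. CD2 was called lower without transitional A (limma adjusted p = 0.0456) and without B (0.0242). With C or D left out no gene of the table was called, with 1577 and 1867 at an unadjusted p under 0.05, and the lone library of a stage was assumed to vary like the other stage. Over the table such fits called 0 to 776 genes higher and 0 to 478 lower, and without a filter 6 and 1. Wider list genes called higher numbered 0 by limma-voom and without a filter, and 0 to 2 with 1 library left out. Those called lower numbered 1 by DESeq2 and 0 to 2 with 1 library left out. Signs turned for GPAT6 (-0.18 and -0.17, range -0.18 to 0.53) and CD1 (-0.089, range -0.089 to 0.18) when a library was left out. Regulators minus enzymes stood at -0.35 without a filter, where SHN3 enters, and at -0.27 to -0.13 with 1 library left out. No paired analysis was possible because the stages share no replicate letter in the titles and no letter or number in the descriptions. The low counts of SHN3, SHN1 and GPAT6 limit what could be detected, and the scalings moved the median of all genes by less than 0.1 on the log2 scale.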

Other observations

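Genes of the trichome, the epidermal hair, were entered as a list of 3 identifiers, of which 2 were tested and 0 called by limma, against 3.89% of all genes tested. At an unadjusted p under 0.05 there was 1, against 17.7% of all genes tested. MYC1 (Solyc08g005050.2), a bHLH factor of glandular trichomes whose name RefSeq places on the chromosome its identifier carries, stood at 37.3 normalised counts in vegetative C, 44.0 in vegetative D, 89.2 in transitional A and 73.9 in transitional B. Both transitional values were above both vegetative ones (log2 change 0.99, SE 0.24, limma adjusted p = 0.0759), whereas Wo stood lower in both. Triterpenoid synthase TTS1 (Solyc12g006530.1), which makes triterpenoids found in cuticular wax, stood at 57.9 in vegetative C, 68.5 in vegetative D, 105 in transitional A and 88.0 in transitional B, a log2 change of 0.60 with SE 0.21 and an adjusted p of 0.197 by limma. Its neighbour in number, TTS2 (Solyc12g006520.1), stood at 195 and 281 against 269 and 212, and its stages overlapped. RefSeq holds the names TTS1 and TTS2 too, on the chromosome that the identifiers carry. MYC1, TTS1 and TTS2 were picked out after their values were seen.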
